A study of Homo sapiens with 18 samples.

Results

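HGF was compared with its vehicle in BxPC-3 cells 4 h after treatment, across all genes that passed a filter on low counts. BxPC-3 is an established human pancreatic adenocarcinoma cell line. The comparison holds 6 of the series' 18 libraries and 16794 of its 58395 gene identifiers. The HGF cells received hepatocyte growth factor (HGF) at 80 ng/ml, and the vehicle cells received phosphate-buffered saline. Both groups have 3 libraries at 4 h. Cells treated with macrophage-stimulating protein (MSP, 100 ng/ml) and the HGF and vehicle cells collected at 1 h, again 3 libraries each, entered the same fit, which sets the low-count filter and the spread, and are otherwise used for tests of a difference. All groups were the same line, grown in medium with fetal bovine serum that was not stated to be withdrawn, so the vehicle cells were not stated to be free of growth factors. The labels call the libraries triplicates and name no separate cultures. The p-values therefore measure the spread between these libraries, which may be technical.

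HGF binds the receptor tyrosine kinase MET. This activates the RAS-ERK cascade, phosphatidylinositol 3-kinase with AKT, and other routes, and epithelial cells that respond loosen their contacts, spread, migrate and grow. ERK signalling switches on immediate-early transcription factors within minutes, and these drive a later wave of target genes. AKT keeps FOXO transcription factors out of the nucleus, so that FOXO target genes are normally expressed less when it is active.

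The 6 libraries held 30556613 to 36307152 counts in the HGF group and 31258894 to 33937712 in the vehicle group. The most abundant RNAs took different shares of these totals. Mitochondrially encoded genes made up 6.17% ± 0.0530 of counts in HGF cells and 8.82% ± 0.142 in vehicle cells, and the 100 most abundant genes of each library held 23.9% ± 0.160 in HGF cells and 24.8% ± 0.113 in vehicle cells (SD, n = 3 each). After thinning to 30556613 counts, 21680 ± 233 genes had at least 1 count in HGF cells and 22768 ± 102 in vehicle cells. The groups did not overlap in any of these 3 measures (exact permutation test, two-sided, p = 0.1 each, the smallest that 3 against 3 libraries allow). The epithelial markers KRT7, KRT8, KRT18, KRT19, EPCAM, CDH1, MUC1 and LAMB3 summed to 6700 to 7044 CPM (counts per 1000000 counts of a library) in HGF and 6303 to 6563 CPM in vehicle libraries, scaled to totals. SMAD4 and CDKN2A, which this line is known to have lost, had 0 counts in all 6 libraries. The 10 fibroblast markers summed to 15.8 to 16.9 CPM in HGF and 19.9 to 23.3 CPM in vehicle libraries. COL1A1 was at 8.35 to 9.41 CPM over the 6 libraries and PDGFRB at 0 to 4 counts. PDGFRA went against the sum, with 31, 26 and 44 counts in HGF and 4, 9 and 14 in vehicle libraries. The leukocyte markers summed to 1.77 to 2.47 CPM in HGF and 2.87 to 3.27 CPM in vehicle libraries. Over the 6 libraries CD3E was at 0.818 to 1.45 CPM and PTPRC at 0 to 3 counts. The endothelial markers summed to 2.64 to 2.91 CPM in HGF and 8.09 to 8.89 CPM in vehicle libraries, with KDR at 0 counts throughout. In vehicle libraries most came from VWF (152, 188 and 199 counts). In HGF libraries VWF had 37, 52 and 31 counts and PECAM1 27, 19 and 36. The part of these marker levels in the results was not tested.

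Most genes that passed the filter were called different in relative level between HGF and vehicle cells. A gene was called at an adjusted p of at most 0.05 (edgeR quasi-likelihood test, Benjamini-Hochberg over 16794 genes). With libraries scaled by TMM factors, which assume that most genes keep their level, 5555 genes were higher and 5846 lower (33.1% and 34.8% of genes tested). Scaled to library totals, 3554 were higher and 8729 lower (21.2% and 52.0%), so that 28.9% of calls were rises in place of 48.7%. With TMM and no low-count filter, 5761 of 31931 genes were higher and 5656 lower, a minority. The TMM factors were 0.842 to 0.860 in HGF libraries and 1.036 to 1.039 in vehicle libraries. They place every log2 fold change 0.29 above its value under library totals, and the median over all genes was -0.06 with TMM and -0.35 with totals. Called in the same direction under both scalings were 3554 rises and 5846 falls (21.2% and 34.8%), and 286 genes were called higher by TMM and lower by totals. Counts give relative abundance only. In these bulk samples fewer cells of a kind and less RNA per cell cannot be told apart. By TMM, 1505 genes rose and 2125 fell by at least 2-fold (8.96% and 12.7% of genes tested). Under both scalings, 306 genes rose and 508 fell by at least 4-fold on the TMM scale. Levels below are CPM with TMM factors, given per library or as mean ± SD with n = 3, and fold changes are log2 with TMM unless totals are named.

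**Figure D1:**
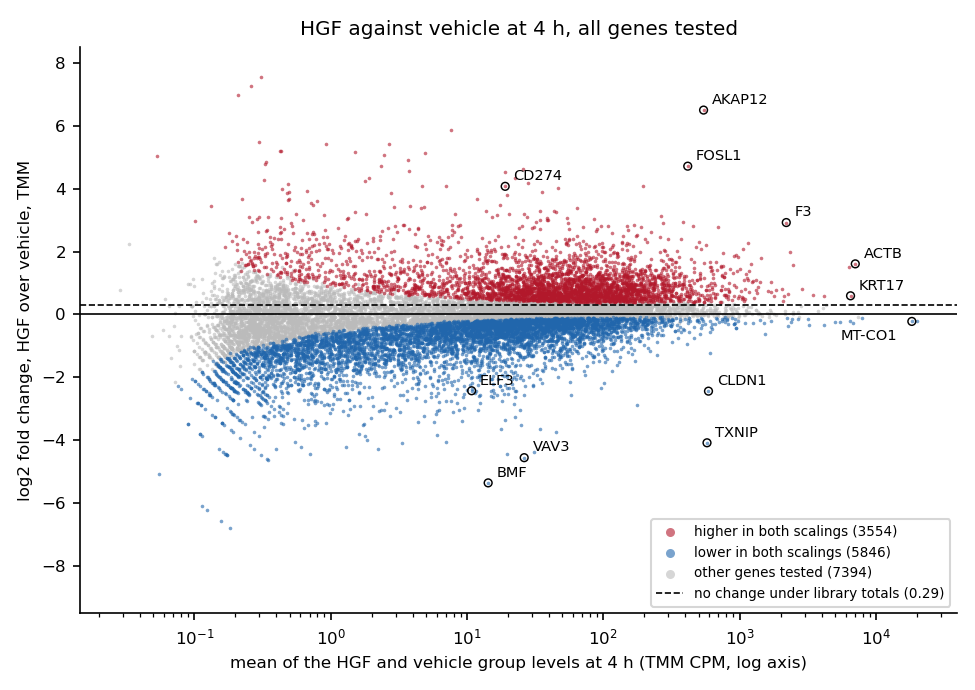
Each point is 1 of 16794 genes, with the mean of the HGF and vehicle group levels in TMM CPM on a log x axis and the log2 fold change of HGF over vehicle on the y axis. Red and blue mark genes called higher (3554) or lower (5846) under both scalings, and the dashed line at 0.29 marks no change under library totals. AKAP12 and BMF stand at 6.5 and -5.35, and ACTB, among the most abundant genes, at 1.61.

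The genes with the largest rises coded for a signalling scaffold, an AP-1 subunit, secreted factors and surface proteins. AKAP12 (ENSG00000131016), which anchors protein kinases A and C at the membrane, had 976, 1136 and 1118 CPM in the HGF libraries, against 13.6, 11.6 and 10.7 CPM in the vehicle libraries. Each HGF library was far above each vehicle library, and the rise was 90.2-fold (log2 fold change 6.5, SE 0.15, adjusted p = 1.63e-14). FOSL1, the AP-1 subunit FRA1, had 803, 789.7 and 816 CPM in the HGF libraries, against 35.3, 29 and 27.7 CPM in the vehicle libraries. The groups lay 26.2-fold apart without overlap (log2 fold change 4.71, SE 0.09, adjusted p = 4.13e-19). CD274 encodes the immune checkpoint ligand PD-L1. It had 37.7, 31.6 and 38.8 CPM in the HGF libraries, against 1.76, 2.14 and 2.5 CPM in the vehicle libraries. The lowest HGF library was still well above the highest vehicle library (log2 fold change 4.07, SE 0.13, adjusted p = 4.14e-22). SERPINB2, the plasminogen activator inhibitor PAI-2, had 358, 375 and 381 CPM in the HGF libraries, against 24.9, 19.4 and 22.2 CPM in the vehicle libraries (log2 fold change 4.07, SE 0.06). Its exons overlap another tested gene of the same strand. STC1 encodes the secreted glycoprotein stanniocalcin 1. Its levels were 85, 89.7 and 89.5 CPM in the HGF libraries, against 5.77, 5.41 and 4.96 CPM in the vehicle libraries, again with no overlap (log2 fold change 4.03, SE 0.07).

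The other leading rises were TMEM158 (4.62), a transmembrane protein first described as induced by RAS, CLMP (4.54), an adhesion molecule of tight junctions, SH2D5 (4.34), an SH2-domain adaptor, and TAGLN (4.18), the actin-binding protein transgelin. GPAT3, an acyltransferase of glycerolipid synthesis, stood at 3.89, RASD1, a small GTPase, at 3.8 and EN1, a homeobox transcription factor, at 3.3. In vehicle cells these 7 genes were at 1.58 to 8.03 CPM, and in HGF cells at 36.6 to 79.2 CPM. The TAGLN exons overlap a tested gene of the opposite strand, and because no source states whether strand was used in counting, reads of such pairs could not be separated.

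The largest falls included a pro-apoptotic gene, an inhibitor of phosphatidylinositol 3-kinase, a regulator of glucose uptake and transcription factors. These too were chosen among genes whose groups did not overlap. BMF (ENSG00000104081) encodes a BH3-only activator of apoptosis. It had 0.837, 0.633 and 0.587 CPM in the HGF libraries, against 28.3, 28.4 and 27.1 CPM in the vehicle libraries. Less than 1 CPM remained in each HGF library, a 40.9-fold difference (log2 fold change -5.35, SE 0.12, adjusted p = 2.29e-26). TXNIP (ENSG00000265972) binds thioredoxin and lowers glucose uptake. It had 66.1, 57.4 and 69.9 CPM in the HGF libraries, against 951, 1163 and 1155 CPM in the vehicle libraries. Its groups were 16.9-fold apart (log2 fold change -4.08, SE 0.09, adjusted p = 1.33e-16). VAV3, a guanine nucleotide exchange factor, had 2.02, 2.49 and 1.96 CPM in the HGF libraries, against 49.4, 50.2 and 51.7 CPM in the vehicle libraries. All 3 HGF libraries were below 3 CPM (log2 fold change -4.55, SE 0.09). FOXP2, a forkhead transcription factor, had 1.1, 0.781 and 0.522 CPM in the HGF libraries, against 12.4, 13.7 and 13.7 CPM in the vehicle libraries, with no overlap (log2 fold change -4.06, SE 0.16).

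TP73, a relative of p53, stood at -4.42 and FBXO32, a ubiquitin ligase known as a FOXO target in muscle, at -4.37. KLHL24, a substrate adaptor of a ubiquitin ligase that acts on keratins, was at -3.75. PIK3IP1, an inhibitor of phosphatidylinositol 3-kinase, was at -3.64, and DIO2, a deiodinase that activates thyroid hormone, at -3.64. SRGAP3, a GTPase-activating protein for RAC1, was at -3.5, YPEL2 at -3.4 and DEPP1, a FOXO-regulated gene involved in autophagy, at -3.39. These 8 genes were at 0.989 to 6.3 CPM in HGF cells and 10.4 to 84.5 CPM in vehicle cells. Exons of TP73, PIK3IP1, SRGAP3 and DEPP1 overlap a tested gene of the opposite strand, so part of their counts is uncertain.

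**Figure D2:**
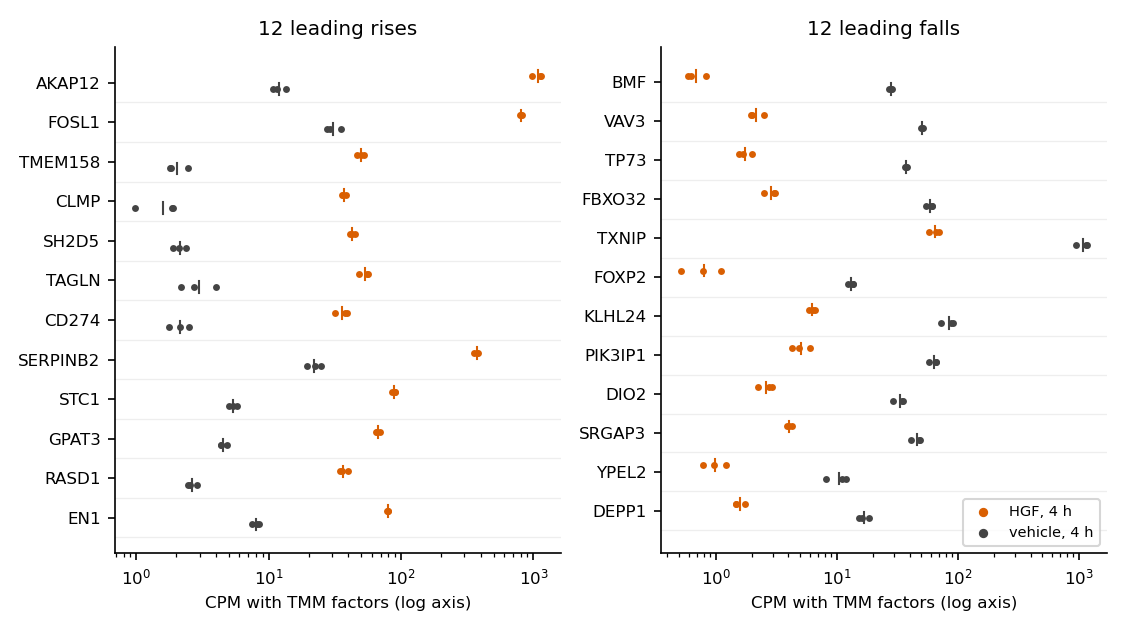
Points are single libraries, orange for HGF and grey for vehicle at 4 h, and ticks are group means, in TMM CPM on log x axes. The 12 leading rises are on the left panel and the 12 leading falls on the right, and in all 24 genes the HGF libraries lie wholly to one side of the vehicle libraries, as the choice of these genes required.

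Measured in CPM gained, the largest rises were those of 2 actins, tissue factor, a chaperone and a keratin. ACTB, the cytoplasmic beta-actin, had 10581, 10689 and 10637 CPM in the HGF libraries, against 3677, 3372 and 3420.2 CPM in the vehicle libraries. The 3.05-fold rise was seen in each HGF library (log2 fold change 1.61, SE 0.04, adjusted p = 1.87e-24). ACTG1, the gamma-actin, averaged 9497 ± 205 CPM in HGF cells and 3306 ± 92.5 CPM in vehicle cells (log2 fold change 1.52, SE 0.04). Together the pair took 1.71% ± 0.0103 of counts in HGF cells and 0.705% ± 0.0254 in vehicle cells. F3, tissue factor, which starts blood coagulation, averaged 3889 ± 169 CPM in HGF cells and 514 ± 44.1 CPM in vehicle cells, a 7.57-fold difference. HSPA8, the constitutive HSC70 chaperone, averaged 3739 ± 87.3 CPM in HGF cells and 955 ± 63.2 CPM in vehicle cells (log2 fold change 1.97, SE 0.05). KRT17, a keratin of basal and wounded epithelium, averaged 7839.7 ± 243 CPM in HGF cells and 5197 ± 71.4 CPM in vehicle cells (log2 fold change 0.59, SE 0.04, and 0.3 under library totals). Actins, HSPA8 and KRT17 have close paralogs or processed pseudogenes, and how the counting split shared reads is not given.

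Among protein-coding genes, the other large losses in CPM were mitochondrially encoded. MT-CO1, a cytochrome c oxidase subunit, had 16547, 17118 and 17183 CPM in the HGF libraries, against 20114, 19633 and 19530.0 CPM in the vehicle libraries. The 2 groups did not overlap, at a log2 fold change of -0.22, SE 0.04. MT-ND4 and MT-ND5, of complex I, stood at -0.27 and -0.33, and MT-CO2 at -0.22. All 13 mitochondrially encoded protein genes fell under both scalings, with a median of -0.27 (TMM) and -0.56 (totals). None fell by 2-fold.

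The counts of list members that rose or fell below are to be read against the 33.1% and 34.8% over all genes tested, or the 21.2% and 52.0% under library totals. Such shares also went with level. Among protein-coding genes with TMM, 21.6% rose and 50.0% fell at 3 to 10 CPM, against 66.0% and 18.1% at 100 CPM or more. The lists were not matched for level, and its part in their counts was not tested. In 4 lists both shares lay within 10 percentage points of the TMM values over all genes tested. These were the semaphorin and ephrin list, the p53 family and targets, the lysosome and autophagy genes and the small nucleolar RNA host genes. Their TMM counts do not stand apart from those of all genes. Other lists lay near the shares under library totals, such as nuclear receptors (8 rose and 15 fell of 26) and mRNA decay factors (8 and 15 of 26).

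The receptors of both ligands were measured in the same cells. MET had 976, 1010.1 and 1068 CPM in the HGF libraries, against 827, 795 and 827 CPM in the vehicle libraries. The HGF libraries lay above the vehicle libraries with TMM (log2 fold change 0.32, SE 0.04, adjusted p = 3.02e-08), but the difference was 0.03 and not called under library totals (adjusted p = 0.498). MST1R, the MSP receptor RON, averaged 125 ± 8.92 CPM in HGF cells and 64.6 ± 4.7 CPM in vehicle cells and rose under both scalings (0.96 and 0.67). Of the MET signalling list, which holds both receptors, 22 of 33 tested members rose and 8 fell (14 and 11 under library totals). GAB1, the docking protein that binds active MET, had 5.78, 7.14 and 6.85 CPM in the HGF libraries, against 17.1, 20.1 and 19.8 CPM in the vehicle libraries. It fell in all 3 HGF libraries (log2 fold change -1.53, SE 0.09), while MAP2K1, the kinase MEK1, rose (218 CPM in HGF against 96.3 CPM in vehicle cells, 1.18), as did PXN, the focal adhesion protein paxillin (0.99). The exons of MAP2K1 and PXN overlap opposite-strand genes.

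Inhibitors that ERK signalling induces against itself were mostly high. Of the ERK feedback list, 17 of 18 tested members rose and 1 fell (15 and 1 under library totals), with a median of 1.5. DUSP2, a phosphatase of MAP kinases, was at 8.88 CPM in HGF against 0.826 CPM in vehicle cells, 3.43. SPRY4, a Sprouty inhibitor, was at 59.7 CPM in HGF against 9.08 CPM in vehicle cells, 2.72, and SPRED3, of a related family, at 2.83. Among immediate-early genes other than AP-1, 19 of 26 tested members rose and 1 fell (18 and 4 under library totals), led by EGR4 (2.82), TRIB1 (2.31) and EGR3 (2.14). For AP-1 subunits, 9 of 13 tested members rose and 4 fell. JUN was at 200.1 CPM in HGF against 55.7 CPM in vehicle cells, 1.84 and MAFF at 1.63. ETS1, an ETS factor, rose (781 CPM in HGF against 178 CPM in vehicle cells, 2.13), whereas over the ETS list 6 of 17 tested members rose and 10 fell.

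All 6 tested EGF-family ligands rose, and 5 did so 2-fold or more. Their median was 2.56 and 2.27 under library totals. TGFA had 335, 313 and 347 CPM in the HGF libraries, against 51.1, 46.4 and 48 CPM in the vehicle libraries. The groups were 6.85-fold apart. Amphiregulin, AREG, was at 169 CPM in HGF against 24 CPM in vehicle cells, 2.82, and epiregulin, EREG, at 125 CPM in HGF against 18.2 CPM in vehicle cells, 2.77. Of cytokines and chemokines, 9 of 17 tested members rose and 2 fell. IL11, a cytokine of the IL-6 family, was at 8.77 CPM in HGF against 0.517 CPM in vehicle cells, 4.08, IL1B at 47.3 CPM in HGF against 5.2 CPM in vehicle cells, 3.19 and IL1A at 96.6 CPM in HGF against 14.6 CPM in vehicle cells, 2.73. Of angiogenic factors, 8 of 12 tested members rose and 3 fell, among them PDGFB (61.5 CPM in HGF against 7.76 CPM in vehicle cells, 2.99), ANGPTL4 (2.82) and EDN1 (2.33). Of TGF-beta, activin and BMP genes, 15 of 27 tested members rose and 10 fell (13 and 12 under library totals). INHBA, the activin A subunit, was at 109 CPM in HGF against 19.4 CPM in vehicle cells, 2.48. NOG, a BMP antagonist, was at 1.25 CPM in HGF against 0.0808 CPM in vehicle cells, 3.93 (SE 0.53). Its vehicle libraries held 4, 4 and 0 counts, so this size is uncertain. BMP6 was at 2.47. Of NF-kB subunits and inhibitors, 11 of 18 tested members rose and 6 fell. TNFAIP3, the inhibitor A20, was at 2.72, TRAF1 at 1.44 and REL, an NF-kB subunit, at -1.04. Of immune checkpoint and surface ligands, 7 of 10 tested members rose and 3 fell. Besides CD274 these included PDCD1LG2, the ligand PD-L2 (4.9), and PVR, the poliovirus receptor (1.92). PDCD1LG2 had 8 counts in each vehicle library (SE 0.27).

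Most genes of pericellular proteolysis and matrix contact rose as well. Of plasminogen activators, their receptor and serpins, 11 of 12 tested members rose and 0 fell (9 and 1 under library totals), with a median of 1.29. PLAUR, the urokinase receptor, was at 87.5 CPM in HGF against 16.5 CPM in vehicle cells, 2.41. Of metalloproteinases and TIMPs, 17 of 25 tested members rose and 3 fell (15 and 6 under library totals). MMP1, interstitial collagenase, had 288, 305 and 294 CPM in the HGF libraries, against 38.5, 41.3 and 44.3 CPM in the vehicle libraries. Its groups were 7.14-fold apart (log2 fold change 2.84, SE 0.06). Stromelysin MMP3 was at 3.55 and ADAM19 at 1.6, both under 2 CPM in either group. Of integrins, laminins and matrix, 14 of 21 tested members rose and 2 fell. ITGA5, the fibronectin receptor subunit, was at 161 CPM in HGF against 40.3 CPM in vehicle cells, 2.0 and ITGB8 at 52.9 CPM in HGF against 152 CPM in vehicle cells, -1.52.

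CDC42EP2, an effector of CDC42, was at 69.3 CPM in HGF against 8.61 CPM in vehicle cells, 3.01. Among YAP targets 10 of 14 tested members rose and 2 fell. Besides F3, CCN2 was at 1.72 and DLC1, a GTPase-activating protein, at 1.58. Among epithelial junction genes 12 of 29 tested members rose and 13 fell (7 and 18 under library totals). The tight junction protein gene CLDN1 had 186, 170.0 and 197 CPM in the HGF libraries, against 948, 985 and 1063 CPM in the vehicle libraries. It fell 5.42-fold without overlap (log2 fold change -2.44, SE 0.07). GJB2, the gap junction protein connexin 26, rose (1211 CPM in HGF against 175 CPM in vehicle cells, 2.79), and OVOL2, a transcription factor that maintains epithelium, was at -1.57. Of mesenchymal genes and EMT regulators, 7 of 13 tested members rose and 1 fell (5 and 3 under library totals), with FOXC2 at 8.43 CPM in HGF against 0.812 CPM in vehicle cells, 3.37, CDH11 at 51.2 CPM in HGF against 12.5 CPM in vehicle cells, 2.04 and LOXL2 at 1.8. Of semaphorins, plexins, ephrins and Eph receptors, 12 of 29 tested members rose and 10 fell (11 and 15 under library totals). SEMA7A was at 3.28, NRP2 at 2.14 and EFNB2 at 1.98. For keratins, 8 of 14 tested members rose and 4 fell. KRT6A, of wounded epithelium, was at 3684 CPM in HGF against 1243 CPM in vehicle cells, 1.57, KRT6B at 1.54 and KRT15 at -1.17. For cornified envelope and squamous genes, 11 of 15 tested members rose and 2 fell, SPRR3 at 2.08 among them. SPRR2D (2.41) and SPRR2A (2.36) are near-identical copies at about 1 CPM and are uncertain.

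Ribosome biogenesis factors rose almost without exception. Of these, 55 of 57 tested members rose and 0 fell (54 and 1 under library totals). The median was 1.37 and 41 members rose by at least 2-fold, beside a median of -0.06 over all genes. URB2, a nucleolar factor of the large subunit, had 72.9, 75.2 and 76.9 CPM in the HGF libraries, against 17.3, 12.4 and 14.7 CPM in the vehicle libraries. All HGF libraries exceeded all vehicle libraries (log2 fold change 2.35, SE 0.07). RRP9, of the U3 small nucleolar ribonucleoprotein, was at 88.3 CPM in HGF against 18.7 CPM in vehicle cells, 2.24, and PNO1, of the small subunit, at 90.6 CPM in HGF against 19.5 CPM in vehicle cells, 2.22. Of cytosolic ribosomal protein genes, 15 of 78 tested members rose and 7 fell, with a median of 0.02 with TMM and -0.27 with totals, where 71 fell. RPL7L1 stood at 0.76, RPL22L1 at 0.6 and RPL13A at -0.35. The first pair are paralogs of core ribosomal proteins.

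Other biosynthetic lists rose on balance. Of translation initiation factors, 36 of 44 tested members rose and 4 fell (30 and 7 under library totals), with EIF5A2 at 1.94, EIF3J at 1.57 and EIF1AD at 1.29. Of cytosolic tRNA synthetases, 20 of 22 tested members rose and 1 fell (16 and 4 under library totals), with GARS1 at 1.28, FARSA at 1.22 and TARS1 at 1.12. Of nucleotide and one-carbon synthesis genes, 17 of 23 tested members rose and 4 fell. CTPS1, which makes CTP, was at 243 CPM in HGF against 52.3 CPM in vehicle cells, 2.22, MTHFD2, a mitochondrial folate enzyme, at 132 CPM in HGF against 40.6 CPM in vehicle cells, 1.7 and PPAT, the first enzyme of purine synthesis, at 1.49. Of polyamine genes, 9 of 12 tested members rose and 3 fell. ODC1, ornithine decarboxylase, was at 237 CPM in HGF against 42.4 CPM in vehicle cells, 2.48, SRM, spermidine synthase, at 2.01 and AMD1 at 1.68. MYC, a transcription factor that drives such genes, had 218, 245 and 234 CPM in the HGF libraries, against 80.2, 77.6 and 74.2 CPM in the vehicle libraries. It rose 3-fold with no overlap (1.59, 1.3 under totals). MXD4, which competes with MYC for their shared partner, fell (17.6 CPM in HGF against 57 CPM in vehicle cells, -1.69), and MLX rose (1.46). Over the MYC, MAX and MXD network 6 of 12 tested members rose and 4 fell (5 and 5 under library totals).

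Of glycolysis and glucose uptake genes, 21 of 22 tested members rose and 0 fell (17 and 1 under library totals). HK2, hexokinase 2, had 276, 309.8 and 296 CPM in the HGF libraries, against 55.5, 50 and 52.6 CPM in the vehicle libraries. Groups were 5.58-fold apart (log2 fold change 2.48, SE 0.05). PFKFB3, which activates phosphofructokinase through its product, was at 112 CPM in HGF against 26.4 CPM in vehicle cells, 2.08, and SLC16A1, a lactate transporter, at 1.84. Of cholesterol and fatty acid synthesis genes, 22 of 27 tested members rose and 2 fell (15 and 6 under library totals), among them HMGCS1 (1475 CPM in HGF against 399 CPM in vehicle cells, 1.89) and SQLE (533 CPM in HGF against 187 CPM in vehicle cells, 1.51), both of sterol synthesis, and STARD4 (1.34). Among amino acid transporters 7 of 16 tested members rose and 5 fell (6 and 7 under library totals). SLC7A5, the leucine carrier LAT1, was at 707 CPM in HGF against 221 CPM in vehicle cells, 1.68, SLC7A1 at 1.17 and SLC1A4 at -1.25. Of heat shock and ER chaperones, 22 of 27 tested members rose and 3 fell (17 and 5 under library totals), with SDF2L1 at 1.71 and HSPH1 at 1.59. Of proteasome subunits, 29 of 34 tested members rose and 3 fell (17 and 6 under library totals), none by 2-fold, with PSMC4 at 0.99, PSMD12 at 0.99 and PSMD11 at 0.91. Of ubiquitin-conjugating enzymes, 23 of 29 tested members rose and 6 fell, UBE2N (1.43), UBE2G2 (1.13) and UBE2S (1.13) among the rises. Of ATF4 stress genes, 12 of 17 tested members rose and 3 fell, with CHAC1 at 1.81, CEBPG at 0.95 and NUPR1 at -2.11.

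Genes known as FOXO targets had the lowest median of the 60 lists. Of these 2 of 21 tested members rose and 18 fell, 14 of the falls by at least 2-fold, with a median of -1.78 and -2.07 under library totals. FBXO32, TXNIP and KLHL24 led, and all were also among the leading falls. The lists were chosen with earlier results of these data known, so the rank of this list is a description only. Of TXNIP and alpha-arrestins, 1 of 4 tested members rose and 3 fell. ARRDC4, which like TXNIP restrains glucose uptake, was at 7.1 CPM in HGF against 38.2 CPM in vehicle cells, -2.43, and ARRDC3 at -0.55. Over the BCL2 family 8 of 17 tested members rose and 8 fell (8 and 9 under library totals). Besides BMF, the BH3-only genes BBC3 (-1.34) and HRK (-1.67) were among the falls. Of the p53 family and its targets, 10 of 27 tested members rose and 12 fell. TIGAR, which lowers glycolytic flux, was at 42 CPM in HGF against 6.25 CPM in vehicle cells, 2.75, and TP53INP1 at 4.68 CPM in HGF against 31.3 CPM in vehicle cells, -2.75. Of lysosome and autophagy genes, 11 of 36 tested members rose and 14 fell (6 and 24 under library totals). GABARAPL1 was at 10.8 CPM in HGF against 50.7 CPM in vehicle cells, -2.23, ULK1, the kinase that starts autophagy, at 8.33 CPM in HGF against 29.7 CPM in vehicle cells, -1.84 and ATG16L1 at 1.42.

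Most DNA replication and mitosis genes fell. Of replication genes, 0 of 36 tested members rose and 30 fell (0 and 35 under library totals), 7 by at least 2-fold, with a median of -0.53. MCM2, of the replicative helicase, had 48.4, 51.4 and 48 CPM in the HGF libraries, against 149, 123 and 136 CPM in the vehicle libraries. It was 2.76-fold lower (log2 fold change -1.47, SE 0.05). PRIM1, a primase subunit, was at 4.73 CPM in HGF against 20.1 CPM in vehicle cells, -2.09, with overlapping genes on both strands, and ORC1 was at -1.52. Of mitosis genes, 3 of 32 tested members rose and 27 fell (0 and 30 under library totals), with a median of -0.54. CDC25C, the phosphatase that activates CDK1, was at 4.27 CPM in HGF against 16 CPM in vehicle cells, -1.91, KIF20A at -1.27 and CENPF at -1.19. Among G1 cyclins, CDKs and inhibitors 11 of 23 tested members rose and 10 fell (8 and 12 under library totals). The CDK inhibitor gene CDKN2C was at -2.6, E2F8 at -2.15 and E2F5 at 2.15. Of DNA repair genes, 9 of 43 tested members rose and 26 fell (5 and 34 under library totals). BRCA2 was at -1.22, and LIG4 (1.68) and ERCC1 (1.35) rose.

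Of interferon and antigen presentation genes, 4 of 36 tested members rose and 18 fell (3 and 29 under library totals). IFIT2 had 5.67, 6.06 and 6.13 CPM in the HGF libraries, against 37.1, 32.6 and 33.3 CPM in the vehicle libraries. It was 5.75-fold lower (log2 fold change -2.52, SE 0.07). STAT2, a subunit of the interferon-activated factor, was at 21.3 CPM in HGF against 93.5 CPM in vehicle cells, -2.14 and IFIT3 at -1.91. Of primary cilium genes, 5 of 41 tested members rose and 27 fell (2 and 32 under library totals), with the Hedgehog receptor gene PTCH1 at -1.84, MKS1 at -1.23 and BBS4 at -1.23. Of Wnt genes, 8 of 27 tested members rose and 18 fell (8 and 19 under library totals). FZD2, a Wnt receptor, was at 0.376 CPM in HGF against 6.35 CPM in vehicle cells, -4.09, while DKK1, a secreted Wnt antagonist, was at 475 CPM in HGF against 54.5 CPM in vehicle cells, 3.13 and TCF7 at 2.24. Over Notch genes 5 of 15 tested members rose and 7 fell (1 and 12 under library totals), with LFNG at -1.69, DLL1 at -1.44 and MAML2 at -1.1. Over nuclear receptors 11 of 26 tested members rose and 12 fell, with RARB at -4.2 and NR5A2 at 2.05. RARB had 1, 4 and 6 counts in the HGF libraries (SE 0.3). Of circadian clock genes, 10 of 16 tested members rose and 4 fell (4 and 6 under library totals), with DBP at -3.03, CSNK1E at 2.29 and CIART at 2.09. Of pancreatic and endodermal transcription factors, 3 of 13 tested members rose and 5 fell, with SOX9 at 53.8 CPM in HGF against 7.88 CPM in vehicle cells, 2.77 and FOXA1 at 13.9 CPM in HGF against 42.9 CPM in vehicle cells, -1.63.

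Of ZNF-named genes, 93 of 399 tested members rose and 206 fell (56 and 277 under library totals), with a median of -0.3, and of ZBTB genes, 10 of 37 tested members rose and 18 fell. ZNF583 was at 5.24 CPM in HGF against 0.845 CPM in vehicle cells, 2.63, ZNF608 at -4.27, ZNF396 at -2.58 and ZBTB10 at -2.19. Of lysine demethylases and methyltransferases, 13 of 23 tested members rose and 7 fell (7 and 10 under library totals). KDM7A (190.2 CPM in HGF against 27.1 CPM in vehicle cells, 2.81), KMT5C (-1.87) and KDM4D (-1.81) were among them. Of mRNA decay factors, 12 of 26 tested members rose and 9 fell (8 and 15 under library totals), with TNRC6B at -1.57 and ZFP36L1 at 1.5. Of mitochondrial ribosomal protein genes, 44 of 71 tested members rose and 9 fell (23 and 26 under library totals). Of nuclear respiratory chain genes, 15 of 63 tested members rose and 12 fell (2 and 50 under library totals). Of small nucleolar RNA host genes, 6 of 23 tested members rose and 9 fell (4 and 12 under library totals). Of SLC25 mitochondrial carriers, 19 of 41 tested members rose and 12 fell (15 and 19 under library totals). The medians of 11 of the 60 lists turned sign between the scalings. These were lists with TMM medians of 0.01 to 0.28, below the 0.29 shift. Of the 2189 list entries 250 did not pass the filter on low counts or had no counts and were not tested.

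**Figure D3:**
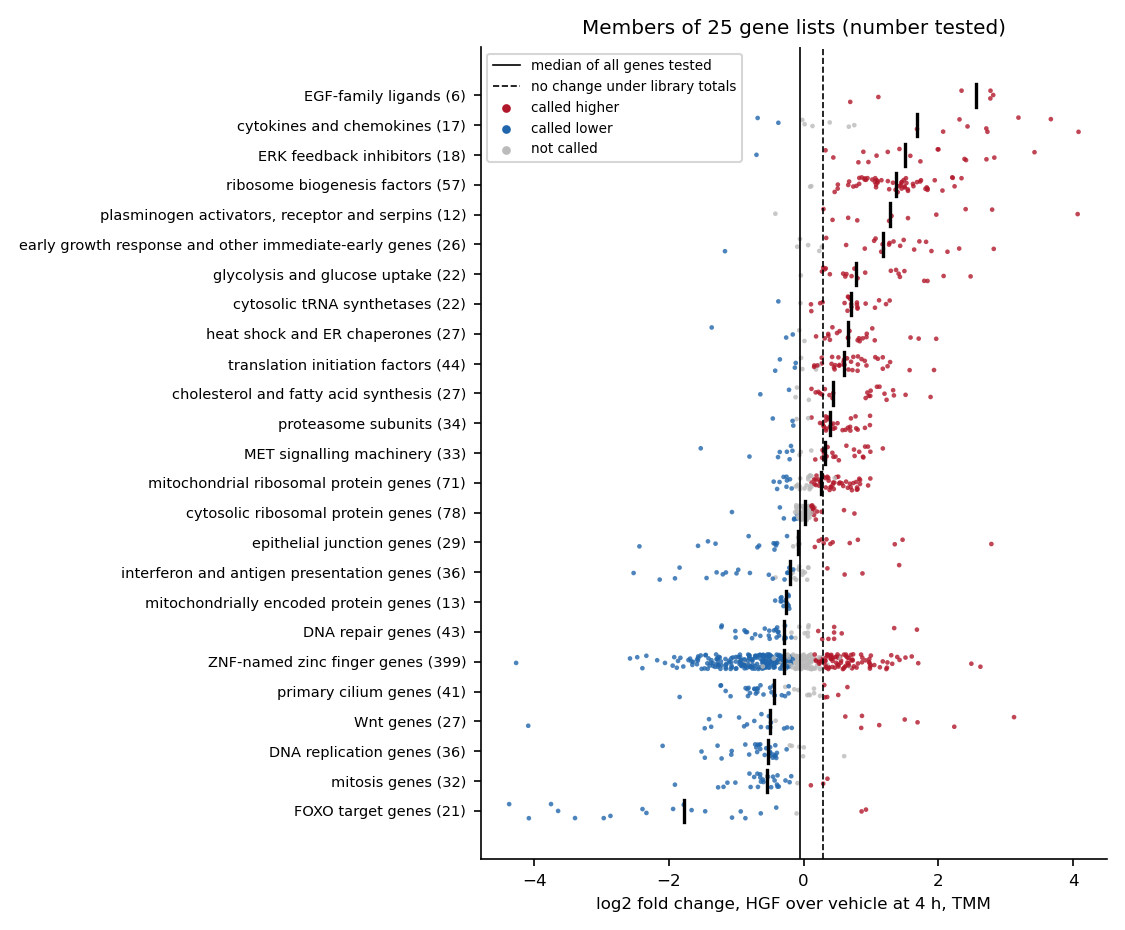
Points are the members of 25 lists at their log2 fold change (HGF over vehicle at 4 h, TMM), coloured by call, with the number tested in brackets and a black tick at each median. The solid vertical line is the median of all genes (-0.06) and the dashed line (0.29) marks no change under library totals. Ribosome biogenesis factors lie almost wholly to the right of both lines, and FOXO targets and replication genes mostly to the left.

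Promoter sequences were searched for motifs of the factors named above. The RefSeq table (GRCh38.p14) holds windows of 250 bases before to 50 after each start, and 10410 of 12869 tested protein-coding genes had at least 1. A gene was counted when any of its windows held the motif on either strand. The motifs were the CArG box of serum response factor, the AP-1 site TGANTCA, the E-box CACGTG bound by MYC and other factors, the forkhead motif GTAAACA, the cell cycle homology region TTTGAA, here called CHR, and the CCAAT box. A CArG box can contain a CCAAT box, and none of the others contains another. Promoters of 7 genes are shown, because each changed more than 3-fold and carries a motif in question, each cut to the 250 bases before the start, 5′ to 3′ in the direction of the gene, with every match to the motif in question in capitals. AKAP12 and TPM4 carry a CArG box, F3 AP-1 sites, DDX21 an E-box, TXNIP and DEPP1 the forkhead motif and CDC25C a CHR. TPM4, a tropomyosin gene, and DDX21, of ribosome biogenesis, were chosen after their values were seen, for their large rises and a motif before the start.
AKAP12: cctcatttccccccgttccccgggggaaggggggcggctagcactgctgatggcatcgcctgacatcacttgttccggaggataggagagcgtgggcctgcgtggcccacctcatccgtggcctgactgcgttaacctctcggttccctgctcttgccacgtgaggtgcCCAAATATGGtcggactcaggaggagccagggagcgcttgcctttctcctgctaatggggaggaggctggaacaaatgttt
TPM4: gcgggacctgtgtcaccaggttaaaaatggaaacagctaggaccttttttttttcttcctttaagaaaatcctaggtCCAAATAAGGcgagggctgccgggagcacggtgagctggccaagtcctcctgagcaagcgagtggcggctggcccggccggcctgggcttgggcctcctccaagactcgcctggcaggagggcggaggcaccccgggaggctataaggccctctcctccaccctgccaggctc
F3: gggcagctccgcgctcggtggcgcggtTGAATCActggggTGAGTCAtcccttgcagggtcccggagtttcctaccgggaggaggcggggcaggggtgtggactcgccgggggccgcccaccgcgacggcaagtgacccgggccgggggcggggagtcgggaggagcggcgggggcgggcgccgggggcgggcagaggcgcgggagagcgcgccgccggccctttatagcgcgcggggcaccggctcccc
DDX21: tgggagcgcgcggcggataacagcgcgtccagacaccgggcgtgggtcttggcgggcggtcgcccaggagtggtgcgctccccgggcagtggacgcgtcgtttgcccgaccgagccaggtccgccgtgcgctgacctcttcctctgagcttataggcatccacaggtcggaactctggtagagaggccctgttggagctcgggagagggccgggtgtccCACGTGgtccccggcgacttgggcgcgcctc
TXNIP: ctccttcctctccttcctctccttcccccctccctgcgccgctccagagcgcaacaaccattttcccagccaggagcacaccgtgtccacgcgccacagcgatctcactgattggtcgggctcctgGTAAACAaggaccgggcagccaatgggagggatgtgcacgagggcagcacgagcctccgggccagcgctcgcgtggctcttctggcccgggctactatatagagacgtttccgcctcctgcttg
DEPP1: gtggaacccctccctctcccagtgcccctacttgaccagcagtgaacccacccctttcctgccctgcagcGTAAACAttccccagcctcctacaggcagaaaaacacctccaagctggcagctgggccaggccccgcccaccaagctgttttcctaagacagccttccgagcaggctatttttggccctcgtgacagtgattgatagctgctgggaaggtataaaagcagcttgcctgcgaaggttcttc
CDC25C: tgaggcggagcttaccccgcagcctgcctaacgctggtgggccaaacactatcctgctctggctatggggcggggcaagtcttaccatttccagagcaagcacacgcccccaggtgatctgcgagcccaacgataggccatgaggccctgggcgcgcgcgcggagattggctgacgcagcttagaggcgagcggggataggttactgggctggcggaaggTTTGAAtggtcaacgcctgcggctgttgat
The windows are chr6:151239717-151239966 (plus strand), chr19:16067288-16067537 (plus strand), chr1:94541760-94542009 (minus strand), chr10:68956397-68956646 (plus strand), chr1:145996580-145996829 (minus strand), chr10:44978810-44979059 (minus strand) and chr5:138331805-138332054 (minus strand), in the same order. AKAP12's CArG box ends 71 bases before the start. TPM4, a tropomyosin that stabilises actin filaments, averaged 1510.0 ± 44.8 CPM in HGF cells and 423 ± 6.4 CPM in vehicle cells (log2 fold change 1.84, SE 0.04), and DDX21, a nucleolar RNA helicase, averaged 931 ± 35.1 CPM in HGF cells and 202 ± 12.5 CPM in vehicle cells (log2 fold change 2.21, SE 0.05).

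The motifs were unevenly spread over the lists, which is given as a description without a test. A CArG box was in 5.45% of genes that rose by at least 4-fold, in 2.18% of genes that fell by at least 4-fold and in 1.64% of all tested protein-coding genes. AP-1 sites were in 16.4% of genes that rose by at least 4-fold, 10.5% of those that fell by at least 4-fold and 7.48% of all. The forkhead motif was in 4 of 17 FOXO targets (23.5%), 9.17% of genes that fell by at least 4-fold, 4.24% of those that rose by at least 4-fold and 3.70% of all. In the bases before the start alone it was in 2 of 17 FOXO targets (11.8%), 6.55% of the 4-fold falls, 3.64% of the 4-fold rises and 3.19% of all. The CHR was in 17 of 26 mitosis genes (65.4%), 20.1% of the 4-fold falls, 13.3% of the 4-fold rises and 14.3% of all. The CCAAT box was in 22 of 26 mitosis genes (84.6%), 55.0% of the 4-fold falls, 36.4% of the 4-fold rises and 43.2% of all. An E-box was in 20 of 47 ribosome biogenesis genes (42.6%) and 12.2% of all, but in the bases before the start alone it was in 6 of 47 (12.8%) and 10.9% of all. In the other 14 it lay, in whole or part, within the 50 bases after the start. The 4-fold groups here are genes called under both scalings.

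Most genes called at 4 h were not called at 1 h. At 1 h, 2317 genes were higher in HGF than in vehicle libraries and 1202 were lower (13.8% and 7.16% of genes tested), from other HGF and vehicle libraries, which enter the 4 h comparison through the shared filter and spread. Of the 1505 genes at least 2-fold higher at 4 h, 742 (49.3%) were already higher at 1 h, 748 were not called and 15 were lower. Of the 2125 genes at least 2-fold lower at 4 h, 338 (15.9%) were already lower at 1 h, 1746 (82.2%) were not called and 41 were higher. The change of the response between the times was tested directly and was called for 8935 genes (53.2% of genes tested). By that test 1222 of the 1505 rises and 1616 of the 2125 falls were larger at 4 h, and 44 and 4 were smaller. These genes were chosen by their size at 4 h in libraries that the test also uses, which favours a larger response at 4 h.

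Of the 12 leading rises 11 were higher at 1 h too, and for 10 the rise was larger at 4 h. The leading rises and falls were chosen by their size at 4 h, which favours a larger response at that time. CLMP was not called at 1 h (log2 fold change 0.18, adjusted p = 0.691), and the response of RASD1 was smaller at 4 h by 1.09 on the log2 scale. Of the leading falls 8 were lower at 1 h, 1 of them by at least 2-fold. That gene was DEPP1, at -3.39 at 4 h and -3.09 at 1 h, and its change between the times was not called (adjusted p = 0.247). BMF was at -0.54 at 1 h, and FOXP2 was at 0.03 and not called. MMP1 was at 2.84 at 4 h, against -0.12 at 1 h, where it was not called. Among lists, the median of ribosome biogenesis factors was 1.37 at 4 h and 0.14 at 1 h, and that of FOXO targets was -1.78 at 4 h and -0.15 at 1 h. That of immediate-early genes was 1.18 at 4 h and 2.47 at 1 h. Of the 126 genes at least 4-fold higher at 1 h, 101 were still higher at 4 h, 20 were not called and 5 were lower, and the response was smaller at 4 h for 62 and larger for 20. Their choice by size at 1 h favours a smaller response at 4 h. EGR3, an immediate-early transcription factor, was at 2.14 at 4 h and 6.02 at 1 h, and CCN2, a matricellular protein, at 1.72 at 4 h and 5.38 at 1 h, both with a called decline (adjusted p = 1.31e-19 and 4.91e-12).

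**Figure D4:**
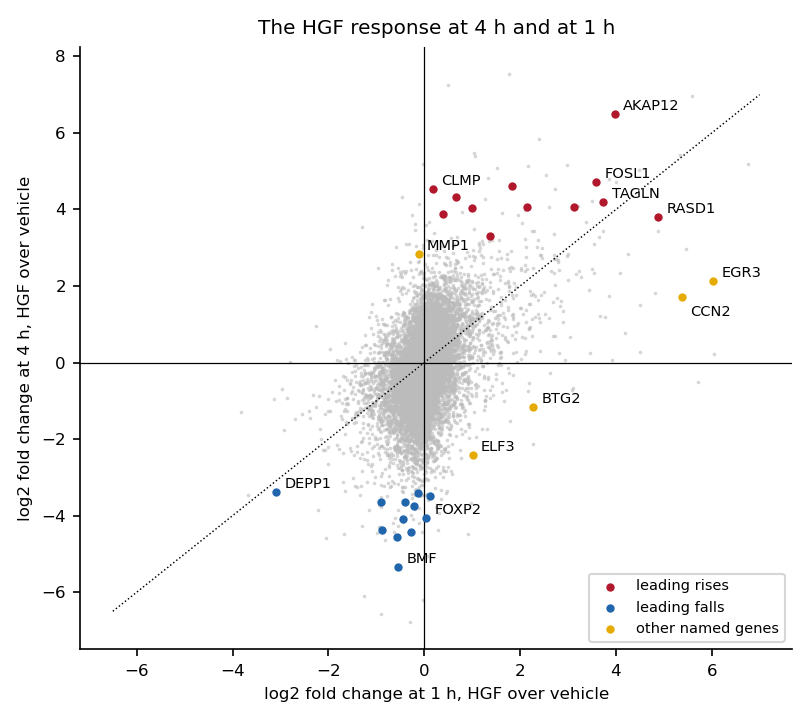
Each point is a gene, with its log2 fold change (HGF over vehicle, TMM) at 1 h on the x axis and at 4 h on the y axis, and the dotted line marks equal responses. The leading rises (red) lie above the line except RASD1, the leading falls (blue) lie between -0.91 and 0.13 at 1 h except DEPP1 at -3.09, and EGR3 and CCN2 lie well below the line.

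Against MSP at 4 h, the direct contrast called 11154 genes (66.4% of genes tested). All 12 leading rises were higher and all 12 leading falls lower after HGF than after MSP. For AKAP12 the HGF level was above the MSP level by 5.55 on the log2 scale, and for BMF the difference was -4.91. The leading genes were chosen by their HGF values at 4 h, and this contrast and the one with vehicle share the HGF libraries. Their directions against MSP were therefore favoured in advance. MSP against vehicle at 4 h gave a median log2 fold change of 0.34 for the leading rises (0.07 to 0.94). For the leading falls it was -0.25 (-0.45 to -0.09).

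Gene type and level went with the direction of change. Protein-coding genes had a median log2 fold change of 0.01, with 39.0% higher and 34.7% lower. Long intergenic non-coding RNAs (998 tested) had a median of -0.62, with 11.6% higher and 43.0% lower. Antisense transcripts (1205 tested) had a median of -0.59, with 9.46% higher and 42.2% lower. Processed pseudogenes (603 tested), which can take reads from their parent genes, had a median of 0.15. Among protein-coding genes, those below 0.5 CPM had a median of -0.52 and those at 100 CPM or more a median of 0.32, and 66.0% of the abundant ones were higher and 18.1% lower. At up to 10 CPM the non-coding classes were lower at like levels too. Between 1 and 3 CPM the median was -0.52 for intergenic and -0.63 for antisense RNAs, against -0.4 for protein-coding genes. Between 10 and 30 CPM, intergenic RNAs (32 tested) were at -0.04, antisense RNAs (40 tested) at -0.39 and protein-coding genes at -0.09. Summed, both classes took 0.532% ± 0.0275 of counts in HGF cells and 0.711% ± 0.0129 in vehicle cells. Split into 5 classes of equal size by genomic span, protein-coding genes had medians of -0.1 in the longest class and 0.04 to 0.05 in the other 4. Library totals lower all these medians by about 0.29. The low-count filter used all 18 libraries, so a gene at a low level can pass through a group other than HGF at 4 h. This favours falls among genes at low levels. With at least 5 CPM required in 3 libraries, 894 genes were at least 2-fold higher and 847 at least 2-fold lower. The part of the filter in the trends with level and type was not tested.

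**Figure D5:**
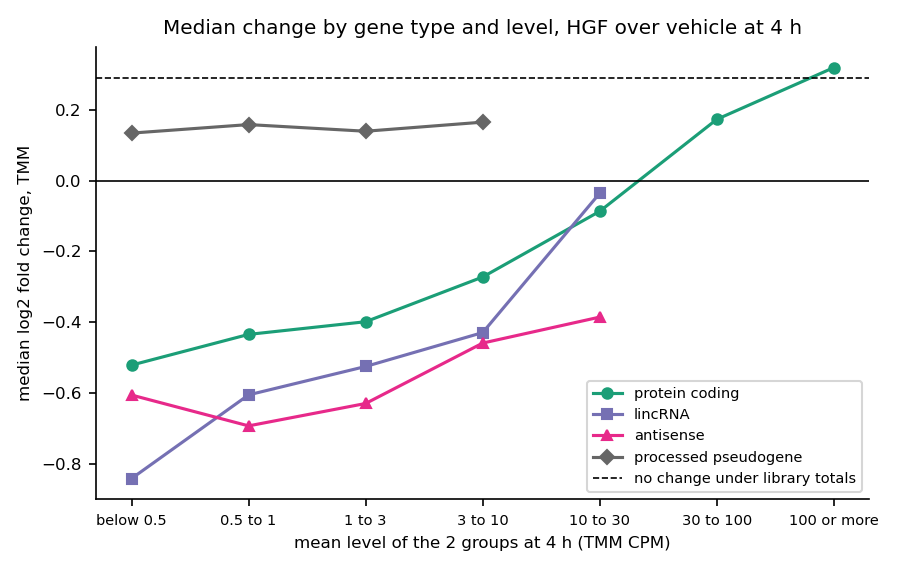
Median log2 fold change (HGF over vehicle at 4 h, TMM, y axis) of 4 gene types in classes of mean TMM CPM (x axis), for classes with at least 20 genes. Protein-coding medians run between -0.52 below 0.5 CPM and 0.32 at 100 CPM or more, intergenic and antisense RNAs lie below them at up to 10 CPM, and processed pseudogenes stay at 0.13 to 0.16.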

How the data were processed

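RNA of BxPC-3 cells was sequenced from libraries made with a KAPA mRNA kit on a HiSeq instrument, per the labels' protocols, and each library was run in 2 lanes. The authors deposited 1 table of whole-number gene counts, with the lanes combined. Per the submitters' processing notes, the tools were STAR and featureCounts (Subread). Build, annotation release and strand setting were not given in the sources used here. Of 58395 identifiers, 57754 were found in the list of gene names and 41885 had a symbol. GENCODE 29, which supplied gene types and exon overlaps, matched 58275. Of the 201 named genes, 44 overlap a tested gene of the opposite strand and 8 one of the same strand in their exons. Only some of these are marked where their values are given. Unmarked ones include MMP1, HK2, MCM2, IFIT2, DKK1, HMGCS1, TNFAIP3 and EGR3 for the opposite strand. For the same strand they include CSNK1E, PVR, OVOL2 and LOXL2.

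From the deposited counts, the 18 libraries were fitted as 6 group means with edgeR 4.0.16 (R 4.3.3; filterByExpr with a minimum count of 10, TMM factors, robust quasi-likelihood F test with 12 residual degrees of freedom, Benjamini-Hochberg adjustment). The biological coefficient of variation was 5.23%. Replicate pairs differed by more than sampling noise, with a chi-square of 2.9 to 5.22 per degree of freedom. Each library was treated as 1 sample, but this spread does not show whether the libraries came from separate cultures. Where a library had no count of a gene, the limit is 3 counts, which covers counting error only. That is 0.0826 to 0.0982 CPM scaled to library totals, not by the TMM factors used for the levels. Alternatives were library totals, RLE, upper quartile, DESeq2 1.42.0, filters, non-robust fits, only the 6 libraries, a replicate block and leaving out each library. The members and lists were chosen with earlier results of these data known.

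Genes were named by rule: the 12 largest rises and 12 largest falls among protein-coding genes called in both scalings, with groups that did not overlap and at least 10 CPM in the higher group; the 5 largest gains and losses in CPM; up to 3 members per list, called in both scalings, with at least 1 CPM; and MET and MST1R. Some genes that this rule named, and 1 list, are not reported here.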

Additional observations from a re-analysis of the deposited data

Results flagged for a closer look

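The response to HGF differed between 1 h and 4 h for 8935 genes by the test of the change itself (edgeR, adjusted p at most 0.05), and 412 genes were called at both times in opposite directions with that change also called. Among genes at 1 CPM or more that moved by at least 2-fold in opposite directions at the 2 times, 2 passed the test of the change, ELF3 and BTG2. The choice by opposite directions used the libraries of that test, which favours a called change. ELF3, an epithelial ETS transcription factor, had 3.46, 3.01 and 3.69 CPM in HGF libraries at 4 h, against 18.2, 18.7 and 17.9 CPM in vehicle libraries at 4 h. At 1 h it had 41.8, 49.2 and 41.5 CPM in HGF libraries, against 22.2, 22.8 and 20.7 CPM in vehicle libraries. It was thus lower after HGF at 4 h (log2 fold change -2.42) and higher at 1 h (1.01), a change of -3.44 (adjusted p = 1.25e-20). Its exons overlap a gene of the opposite strand. BTG2, an antiproliferative gene that promotes deadenylation of mRNA, had 28.3, 29.8 and 29.4 CPM in HGF libraries at 4 h, against 62.5, 67.9 and 66.1 CPM in vehicle libraries. At 1 h it had 263, 266 and 251 CPM in HGF libraries, against 54.9, 55.4 and 51.4 CPM in vehicle libraries. The 4 h fall of 1.17 on the log2 scale and the 1 h rise of 2.27 differed by -3.44 (adjusted p = 3.80e-26).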

How the results depend on the processing

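Library totals and a stricter filter moved some counts by over 1.5 times. Under library totals 3554 genes were higher, 884 of them by at least 2-fold, and 3312 were lower by at least 2-fold, against 5555, 1505 and 2125 with TMM. Upper-quartile factors fell between, with 34.7% of calls higher, while RLE and DESeq2 gave 50.8% and 51.1%, beside 48.7% with TMM. With at least 5 CPM required in 3 libraries, which left 10744 genes to test, 894 were at least 2-fold higher and 847 at least 2-fold lower. Leaving out any 1 library gave 5310 to 5391 genes higher, 5373 to 5610 lower, 1493 to 1574 at least 2-fold higher and 2004 to 2133 at least 2-fold lower, and 8454 to 8743 genes for the change between times and 10490 to 10658 for HGF against MSP. All other counts stayed within 1.5 times. Same-numbered HGF and vehicle libraries at 4 h hardly deviated together (correlations 0.004, 0.061 and 0.015), so the numbers were not taken to pair them. The replicate block gave 5577 rises and 5859 falls, with 1506 and 2117 of at least 2-fold, 9049 changed between times and 11237 differed between HGF and MSP. Of 201 named genes 200 kept their direction and call under every alternative that gave them an adjusted p, and MET lost its call under library totals. The medians of all 60 lists moved with library totals, and 11 turned sign. Precision at low counts is limited: the sizes for genes under about 1 CPM rest on few counts.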
